A study of Oryza sativa with 24 samples.

Results

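HOX4 (LOC4347333 in RefSeq, chromosome 9) is a homeobox gene of rice. It was looked up by symbol and synonym in the probe set annotation, where 1 gene of the 17905 represented on the array matched, by a single probe set. It was chosen by its measured fall after 6 h of cold in these same data, so its levels over time are given as a description, with no test. The data were 24 Affymetrix arrays of shoot and leaf RNA from seedlings of Oryza sativa at the 4-leaf stage. Each of 8 accessions (MH63, Muguanuo, 9311, Geng87-304, ZS97, Lixingeng, IRAT109 and Youmangzaogeng) gave 1 array before cold, 1 after 6 h and 1 after 24 h in a chamber kept at 4 °C on a cycle of 14 h light and 10 h dark. Seedlings of all groups had been raised in potting soil, and the temperature before the move is not given in the labels. 9311, ZS97 and MH63 are known as indica lines and IRAT109 as an upland japonica line, which is background and was not used to group samples. No array of seedlings kept warm was analysed here, so 6 h of cold and a later hour of the day cannot be told apart. The labels do not tell whether an array held 1 plant or a pool, and any p-value below measures only the spread between these arrays.

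HOX4 encodes a transcription factor of the homeodomain-leucine zipper (HD-Zip) kind, a family found in plants. The homeodomain contacts DNA and the adjoining leucine zipper pairs the protein with a partner of its family. The family has 4 classes: members of class I, which include HOX4, are known from responses to water shortage, abscisic acid and light, class II from auxin and shade responses, class III from leaf polarity and vascular tissue, and class IV from the epidermis. Rice plants that overproduce HOX4 are known to be short and to respond weakly to gibberellin, the hormone of stem and leaf elongation.

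The deposited values were probe set intensities on a linear scale, with array medians of 41.8 to 46.7. Changes are differences of log2(intensity + 32) within an accession, a scale on which the change of dim genes is understated. Folds are taken on the same scale and are smaller than those of the raw intensity, whereas percentages are of the raw intensity. A gene was taken as above background on an array where it read over the highest of the 10 probe sets for a fungus, Magnaporthe, on that array. Before cold the arrays' 75th percentile averaged 122. At 6 h it had dropped in 8 of 8 accessions (mean difference -5.63 ± 2.37, SD) as it had by 24 h (-8.52 ± 3.20). The 3′ over 5′ signal of the actin controls is a sign of RNA quality. Its log2 ratio was 2.95 to 4.62 over the 24 arrays (mean 3.91), so the 3′ end read far brighter on every array. The ratio dropped, toward a smaller 3′ excess, by 24 h in 8 of 8 accessions (mean difference -0.43 ± 0.31) and by 6 h in 5 of 8 (-0.02 ± 0.23). A pair of arrays went against their labels: Lixingeng before cold and MH63 at 24 h had a Spearman correlation of 0.992 over all probe sets, the highest among 276 pairs of arrays, of which the next reached 0.981. Below, this near-identical pair is kept unless stated, and results that rest on it are given with and without it.

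HOX4 fell to a fraction of its starting level in every accession. Its intensity ran from 617 to 1588 before cold (median 1102, n = 8), from 249 to 626.5 at 6 h (median 414) and from 96.6 to 892 at 24 h (median 137). Without the near-identical pair the ranges before cold and at 6 h were the same, while the highest at 24 h was 275 (median 113, n = 7). The lowest array before cold, 617 in Geng87-304, stood just under the highest at 6 h, 626.5 in 9311, so the groups overlapped only between different accessions. HOX4 read above background on 24 of 24 arrays, at 6.45 times the fungal control or more before cold, at 2.78 times or more at 6 h and at 1.23 times or more at 24 h. The ratios nearest to 1 were those at 24 h of Geng87-304 (1.23), Youmangzaogeng (1.36) and IRAT109 (1.37).

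Accession by accession, 3 lines read highest before cold and kept the top ranks at 6 h and 24 h, at lower levels. MH63 had the highest level before cold, 1588, with 593 at 6 h and 892 at 24 h, the last being an array of the near-identical pair. In ZS97 the intensity went from 1547 to 615 and then to 263. In 9311 it went from 1489.8 to 626.5 and then to 275. MH63, ZS97 and 9311 were the highest 3 of the 8 before cold and again at 6 h.

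The next in order before cold was Muguanuo, where HOX4 dropped from 1205 to 249 at 6 h and to 109 at 24 h. Youmangzaogeng read 998, 342 and 109 in the same order of times. IRAT109 read 746, 301 and 96.6. Muguanuo had thus started well above the other lines of this lower set and ended among them.

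Geng87-304, the lowest before cold, read 617, then 249, then 113. Lixingeng read 846 before cold, on the other array of the near-identical pair, then 486 and 162. The 2 arrays of that pair gave similar HOX4 intensities, 846 and 892, although they are labelled with different accessions and times.

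**Figure D1:**
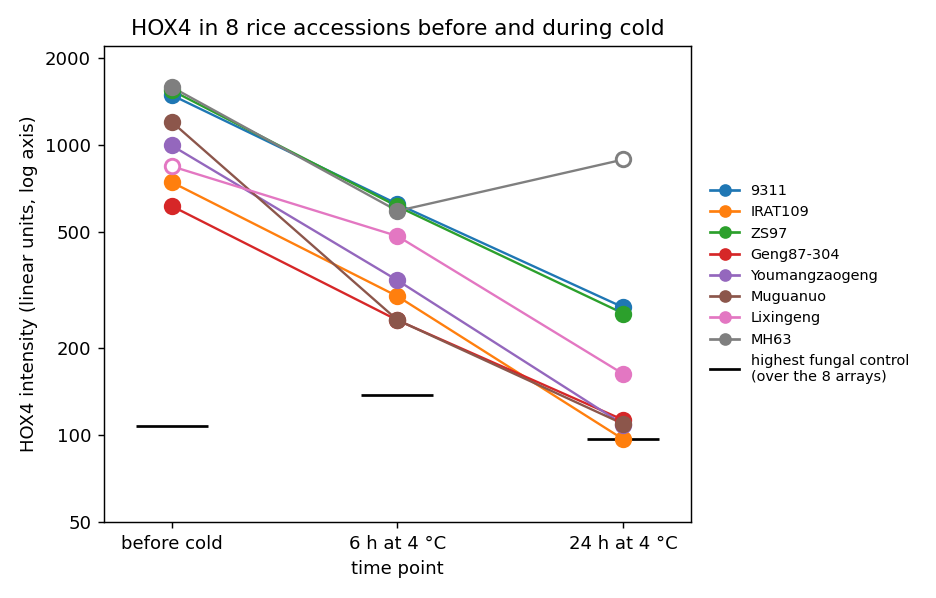
HOX4 intensity (log axis) at each time point, 1 line per accession and 1 point per array. Open points are the near-identical pair (Lixingeng before cold and MH63 at 24 h), and black bars give the highest fungal control over the 8 arrays of each time. Every line falls from before cold to 6 h, and MH63 alone rises to 24 h, to 892, on an open point.

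In the first 6 h the level dropped to between 20.7% and 57.4% of the starting intensity (8 of 8 accessions lower). The mean log2 change was -1.33 ± 0.38 (SD, n = 8), a fall of 2.52-fold, and without Lixingeng, whose before array is in the near-identical pair, it was -1.41 ± 0.33 (n = 7). The changes of 9311, IRAT109, ZS97 and Geng87-304 were close together, at -1.21, -1.22, -1.29 and -1.21. Muguanuo had the deepest fall, -2.14, and Lixingeng the shallowest, -0.76.

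By 24 h the level stood at 9.05% (Muguanuo) to 19.2% (Lixingeng) of its start in 7 accessions and at 56.2% in MH63. The mean log2 change from before cold was -2.31 ± 0.69 (n = 8), a fall of 4.96-fold. Without the near-identical pair it was -2.58 ± 0.36 (n = 6), a fall of 5.99-fold. This comparison shares the before arrays with the one at 6 h, so the values are set side by side and not counted as a further finding.

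Between 6 h and 24 h HOX4 kept falling. In the 7 accessions other than MH63 the 24 h intensity was 31.8% to 45.3% of that at 6 h, and the log2 change lay between -1.41 and -0.96 (mean -1.20 ± 0.20, n = 7). In MH63 it was 150.5%, a log2 change of 0.56, and with that accession the mean was -0.98 ± 0.65 (n = 8).

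The difference between accessions at matched times does not enter the rule that chose HOX4, and it was tested. With 1 array per accession and time, the 3 time points stood as the replicates of an accession. This holds for the test and for the standard errors below. The accession term passed in the fit across all probe sets (moderated F = 8.05, adjusted p = 0.000753, limma), and without the near-identical pair as well (F = 19.3, adjusted p = 4.75e-06). The share of all 57258 probe sets that passed this test was 54.3%, or 60.9% without the pair, so a difference between these accessions was common on the array. Fitted over the 3 time points, the log2 level was 8.22 in Geng87-304, 8.33 in IRAT109, 8.52 in Muguanuo and 8.56 in Youmangzaogeng, each with a standard error of 0.22. Lixingeng followed at 8.80, ZS97 at 9.39, 9311 at 9.40 and MH63 at 9.93.

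Most neighbours in this order did not differ beyond their error. The gaps among the lowest 5 accessions were 0.05 to 0.24, each below the standard error of a difference, 0.30. Lixingeng and ZS97 were separated by 0.59, or 1.93 standard errors, and 9311 and MH63 by 0.53, or 1.75 standard errors. Without the near-identical pair Lixingeng came to 8.97 and MH63 to 9.34, which was 0.05 below ZS97, itself 0.01 below 9311. The widest gap was then the 0.41 between Youmangzaogeng and Lixingeng, 2.35 times its standard error, followed by the 0.37 between Lixingeng and MH63, 1.87 times. MH63, ZS97 and 9311 then stood side by side at the top of the order.

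**Figure D2:**
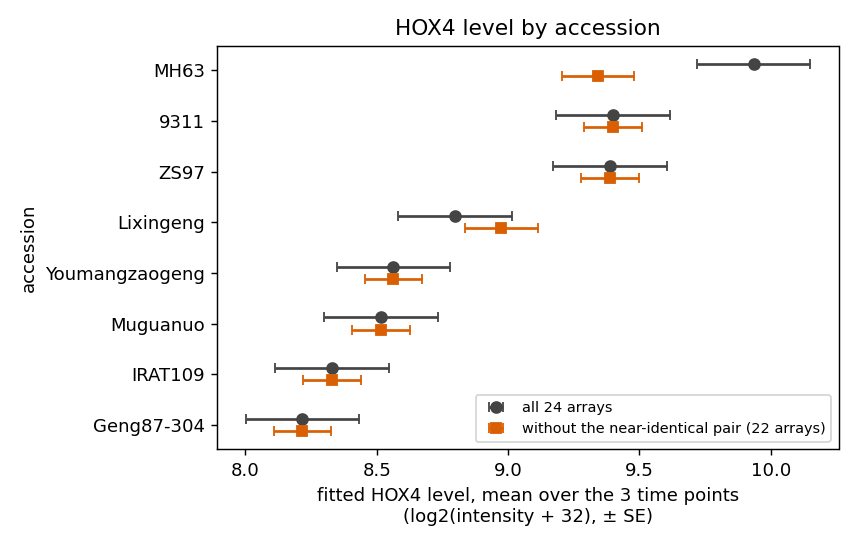
Fitted HOX4 level of each accession as a mean over the 3 time points (log2(intensity + 32), ± SE), from all 24 arrays (circles) and from 22 arrays without the near-identical pair (squares). MH63 moves from 9.93 to 9.34 and then lies beside ZS97 and 9311, and Lixingeng moves from 8.80 to 8.97.

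The question that follows is whether other HD-Zip genes moved in cold. Of the rest of the family 32 genes were measured: 11 of class I, 8 of class II, 5 of class III and 8 of class IV. At 6 h 9 of the 32 fell (28.1%, against 6.96% of all probe sets) and 0 rose (2.79% of all probe sets; also 0 at an unadjusted p under 0.05 by limma). The median log2 change of the 32 was -0.10, and that of all probe sets was -0.01. At 24 h 13 fell and 6 rose, where 19.8% of all probe sets fell and 13.3% rose, and the median was -0.07 against -0.01. From 6 h to 24 h 5 fell and 7 rose (10.1% and 7.94% of all probe sets). Without the near-identical pair 10 fell and 2 rose at 6 h (9.91% and 4.5% of all probe sets), 14 fell and 7 rose at 24 h (20.9% and 15.9%), and 5 fell and 9 rose from 6 h to 24 h (14.2% and 12%). Without the accession block the family had 2 calls at 6 h, 12 at 24 h and 4 from 6 h to 24 h, where 2.67%, 17.4% and 5.68% of all probe sets passed. Of the 32 genes, 10 were not above background on any array, and 7 were read only by probe sets shared between transcripts.

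Class I, the class of HOX4, held the deepest falls of the family, those of HOX22 and HOX13. At 6 h 3 of 11 fell (6.96% of all probe sets) and 0 rose (0 at an unadjusted p under 0.05), and at 24 h 6 fell and 1 rose (19.8% and 13.3% of all probe sets). HOX22, known from drought and abscisic acid responses, ran from 452 to 1239 before cold (median 615), from 223 to 572 at 6 h (median 305) and from 113 to 509.5 at 24 h (median 175). Its level was lower in 8 of 8 accessions at both times. The log2 change of HOX22 was -0.98 ± 0.24 at 6 h (SD, n = 8; adjusted p = 7.06e-06) and -1.55 ± 0.34 at 24 h (adjusted p = 1.27e-08). Between 6 h and 24 h HOX22 fell by a further 0.57 ± 0.33 (adjusted p = 0.000724), with MH63 the only accession that did not fall.

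HOX13 moved with HOX22. The intensity of HOX13 was 184 to 333 before cold (median 257), 87.6 to 170.1 at 6 h (median 109) and 56.6 to 206 at 24 h (median 73.6). The before and 6 h groups did not overlap. HOX13 changed by -0.90 ± 0.24 at 6 h (adjusted p = 7.46e-06) and by -1.21 ± 0.36 at 24 h (adjusted p = 4.37e-08), lower in 8 of 8 accessions at both times. It was above background on 18 of 24 arrays. From 6 h to 24 h it changed by -0.31 ± 0.25 (adjusted p = 0.0317).

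HOX24, also known from drought and abscisic acid responses, was dim, with 42.9 to 166 before cold, 28.6 to 48.3 at 6 h and 24.4 to 34.6 at 24 h. It fell by 0.67 ± 0.41 on the log2 scale at 6 h (adjusted p = 0.0006) and by 0.85 ± 0.44 at 24 h (adjusted p = 8.13e-06), in 8 of 8 accessions each time. Because HOX24 was above background on only 2 of 24 arrays, the size of its fall depends on the offset. HOX6 had a change of -0.21 ± 0.19 at 6 h, which did not pass (adjusted p = 0.0854; 0.0341 without MH63, change -0.24), and fell by 0.63 ± 0.23 at 24 h in 8 of 8 accessions (adjusted p = 1.56e-06).

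Smaller falls at 24 h were those of HOX20 (-0.27 ± 0.16, 8 of 8 accessions, adjusted p = 0.000345) and HOX5 (-0.21 ± 0.23, 7 of 8, adjusted p = 0.0237). At 6 h HOX20 had a change of -0.09 and HOX5 of -0.21 (adjusted p = 0.344 and 0.0576). A shared probe set of HOX20, at 28.4 to 105, gave -0.20 at 6 h and a larger fall, -0.56, at 24 h (adjusted p = 0.131 and 1.64e-05, limma). A dim second probe set of HOX5, at 13.1 to 28.6, gave 0.04 at 24 h (adjusted p = 0.493, limma). The call of HOX5 at 24 h was lost without 9311, ZS97 or Muguanuo (changes -0.18, -0.15 and -0.19) and with quantile normalization (-0.14), and its change at 6 h passed without Geng87-304 (-0.25) or without the near-identical pair (-0.22). HOX12, known for its part in panicle elongation through gibberellin breakdown, was the class I gene that rose at 24 h (0.27 ± 0.22, 8 of 8, adjusted p = 0.00261), but it was not above background on any array.

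The other class I genes did not pass at either time. HOX16 read 2420 to 3780 over all arrays, and its values were -0.04 ± 0.19 at 6 h and 0.09 ± 0.25 at 24 h (adjusted p = 0.835 and 0.35). A shared probe set of HOX16 gave -0.14 and 0.12, and a dim one, at 8.97 to 42.0, passed with 0.25 and 0.59 (adjusted p = 0.0182 and 1.47e-06). HOX21 had -0.17 ± 0.40 and 0.27 ± 0.51 (adjusted p = 0.511 and 0.139), and without the near-identical pair its change at 24 h was 0.50 and passed (adjusted p = 3.38e-05). HOX8 and HOX14 were not above background on any array and had changes of -0.05 and -0.03 at 6 h.

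Class II moved both ways. HOX1, known from the differentiation of vascular tissue, was at 186 to 444 before cold, 286 to 582 at 6 h and 404 to 1726 at 24 h. Its change at 6 h was 0.29 ± 0.42, which did not pass (adjusted p = 0.368; 0.0471 without the near-identical pair, change 0.35), and rose by 1.79 ± 0.72 at 24 h in 8 of 8 accessions (adjusted p = 2.61e-07). HOX2 rose by 1.26 ± 0.59 at 24 h (8 of 8, adjusted p = 1.77e-06), after 0.21 ± 0.38 at 6 h (adjusted p = 0.45; 0.0156 without the pair, change 0.31). HOX1 and HOX2 therefore rose over the same day in which HOX4, HOX13 and HOX22 went down.

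Of the other class II genes, HOX11 rose by 0.46 ± 0.23 at 24 h (adjusted p = 1.95e-05), but it was above background on only 2 of 24 arrays, so the size of its change depends on the offset. HOX15 fell by 0.68 ± 0.35 at 6 h (8 of 8, adjusted p = 0.000871) and by 0.51 ± 0.46 at 24 h (7 of 8, adjusted p = 0.00235). HOX17 fell by 0.18 and 0.19 but was not above background on any array, and its call at 6 h was lost without ZS97 (-0.16). HOX11, HOX15 and HOX17 were each read by a shared probe set alone. In class II as a whole 2 of 8 fell at 6 h, with 0 higher (0 at an unadjusted p under 0.05), while 3 rose and 2 fell at 24 h. Of all probe sets 6.96% fell at 6 h, and 13.3% rose and 19.8% fell at 24 h, so 2 of 8 lower at 24 h was near that share.

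Of 5 class III genes, 1 fell at 6 h and 0 rose (0 at an unadjusted p under 0.05), and 2 fell and 1 rose at 24 h, against the same shares of all probe sets. Among them, HOX9 fell by 0.29 ± 0.13 at 6 h (adjusted p = 0.00528) and by 0.34 ± 0.19 at 24 h (adjusted p = 0.000285). At 24 h HOX10 fell by 0.20 ± 0.20, a call lost without 9311, Geng87-304, Youmangzaogeng or Muguanuo (changes -0.16, -0.20, -0.21 and -0.18) and with quantile normalization (-0.11), and at 6 h its change of -0.19 passed without IRAT109 (-0.24). A second, dim probe set of HOX10, at 22.8 to 46.6, went the other way at 24 h, with 0.22 (adjusted p = 0.00195). HOX32 rose by 0.22 ± 0.21 at 24 h, a call lost without IRAT109 (0.16).

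Class IV had 3 of 8 lower and 0 higher at 6 h (0 at an unadjusted p under 0.05) and 3 lower and 1 higher at 24 h, against 6.96% lower at 6 h and 19.8% lower and 13.3% higher at 24 h of all probe sets. ROC1, a factor of the epidermis, went from a median of 712 before cold to 504 at 6 h and 318 at 24 h. It fell by 0.54 ± 0.19 and then stood 1.06 ± 0.27 below its start (adjusted p = 0.000261 and 3.98e-08), in 8 of 8 accessions at both times. ROC2 fell by 0.31 ± 0.23 and 0.47 ± 0.26, the first call being lost without Muguanuo (-0.29). ROC5, known from leaf rolling, fell by 0.21 and 0.23, the call at 6 h being lost without 9311, ZS97, Youmangzaogeng, Muguanuo or MH63 (-0.20, -0.19, -0.19, -0.19 and -0.20), with quantile normalization (-0.14) and with equal medians (-0.18). ROC6 rose by 0.42 ± 0.36 at 24 h (8 of 8, adjusted p = 0.00156).

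**Figure D3:**
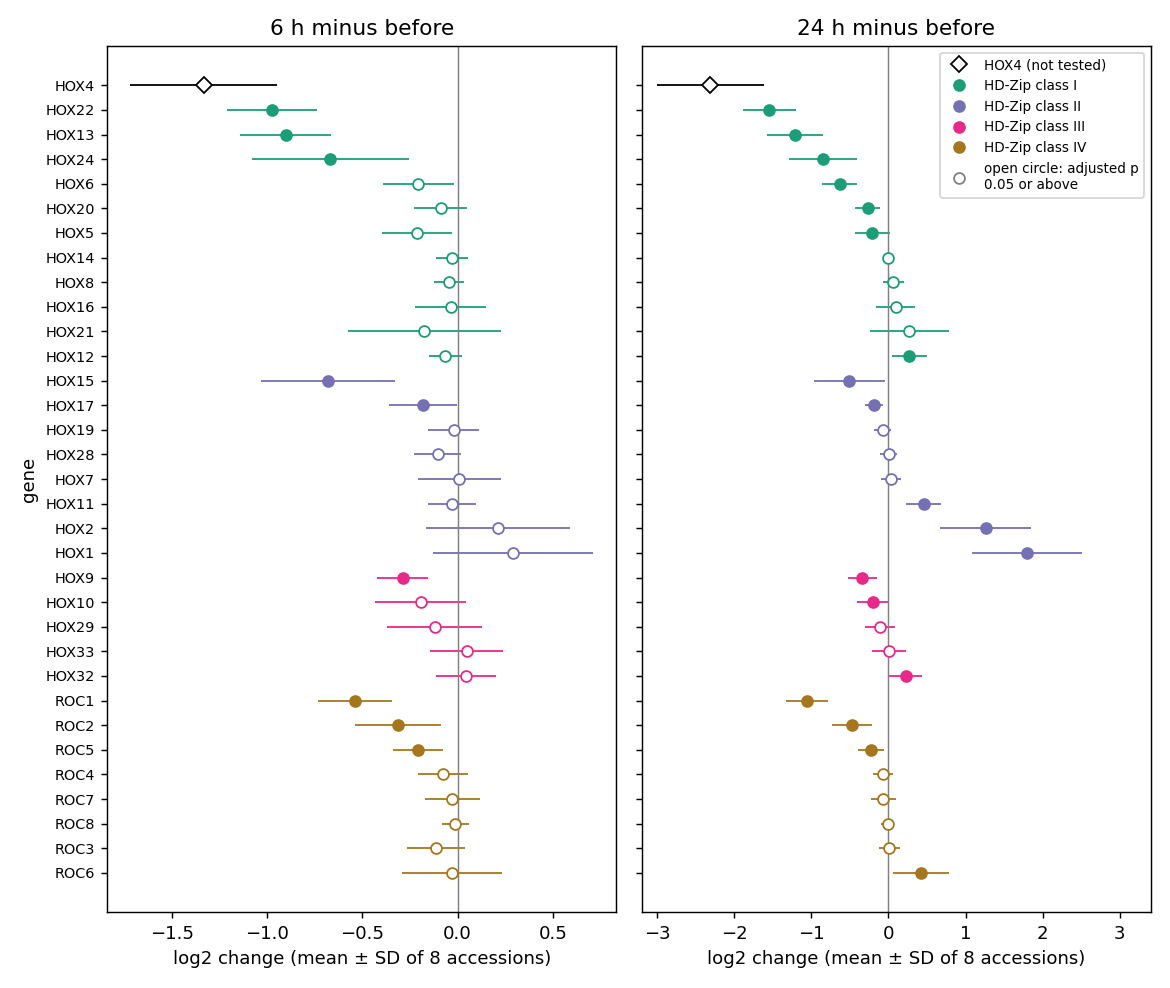
Log2 change of HOX4 (diamond, not tested) and 32 other HD-Zip genes at 6 h and 24 h against before cold, as mean ± SD of 8 accessions. Filled circles passed at an adjusted p under 0.05 and open circles did not. HOX22 and HOX13 of class I lie nearest to HOX4 at both times, and HOX1 and HOX2 of class II lie furthest to the right at 24 h.

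Likeness to HOX4 was measured as Pearson's r of log2 levels over the 24 arrays, which share the time course, the accessions and the near-identical pair. Among the 2472 genes with a name, other than HOX4, the highest r belonged to HOX13 (0.96) and the next to HOX22 (0.95), both of class I. Over all 17904 genes they ranked 2 and 10, against a median r of 0.10 and 103 genes with r over 0.9. Without the near-identical pair r was 0.96 and 0.95 over 22 arrays, and the order of the first 2 named genes was kept. The third was APRL3, a reductase-like gene (0.94), the fourth CDKF-3, a cyclin-dependent kinase gene (0.93), and the fifth CIPK6, a kinase regulated by calcium sensors (0.93).

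HOX13 and HOX22 also ran with HOX4 across accessions at a fixed time. Within a time point, over the accessions, the r of HOX4 with HOX13 was 0.95 before cold (n = 7, without Lixingeng), 0.86 at 6 h (n = 8) and 0.80 at 24 h (n = 7, without MH63). For HOX22 it was 0.93, 0.87 and 0.86. After time point and accession had both been fitted and removed, r over the 22 arrays was 0.60 for HOX13 and 0.36 for HOX22. APRL3 had 0.77, 0.33 and 0.96 within time points and 0.13 after that fit. CDKF-3 had 0.90, 0.69 and 0.76 and then 0.48, above the 0.36 of HOX22, and CIPK6 had 0.80, 0.79 and 0.77 and then 0.34. The accession term of HOX13 passed (adjusted p = 0.000837), as did that of HOX22 (adjusted p = 1.98e-06), where 54.3% of all probe sets did.

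At 24 h HOX13 stood at 24.6% to 37.9% of its starting intensity in the 7 accessions other than MH63, HOX22 at 22.6% to 41.3% and HOX4 at 9.05% to 19.2%. The HOX13 shares include 9311, Geng87-304, Youmangzaogeng and Lixingeng, where its 24 h reading was below the highest fungal control. In MH63 at 24 h, on the array of the near-identical pair, the shares of HOX13, HOX22 and HOX4 were 72.6%, 51.4% and 56.2%. At 6 h the share ran from 33.9% to 62.6% for HOX13, from 37.6% to 62.5% for HOX22 and from 20.7% to 57.4% for HOX4. HOX4 had the lowest share of these genes in every accession except 9311 and Lixingeng. In the order HOX13, HOX22 and HOX4, the shares were 40.9%, 37.6% and 42.1% in 9311 and 62.6%, 56.2% and 57.4% in Lixingeng. At 6 h too HOX13 read below the highest fungal control in 9311 (113 against 137) and Geng87-304 (89.2 against 89.6). These values are set side by side with no test, since HOX4 was chosen for its fall.

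The rest of the family was less alike. HOX6 had an r of 0.87, HOX24 of 0.75 and HOX20 of 0.61, while HOX16 had -0.30. HOX1 and HOX2, which rose, had -0.79 and -0.68. The lowest r of all named genes were those of CIGR1, a GRAS-family gene known from gibberellin and chitin responses (-0.91), OsTPP1, a trehalose phosphate phosphatase gene (-0.91), and OsPP2C32, a protein phosphatase gene (-0.90), followed by MAPKK1 and CDKG-1, both kinase genes (both -0.89). Before cold alone (n = 7), r in this order was -0.78, 0.59, -0.20, -0.80 and -0.42. With time point and accession removed, it was -0.40, -0.16, -0.15, -0.19 and -0.10 over 22 arrays. In log2 changes, CIGR1 stood at 0.59 at 6 h and 1.41 at 24 h, and OsTPP1 at 1.23 and 2.70.

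**Figure D4:**
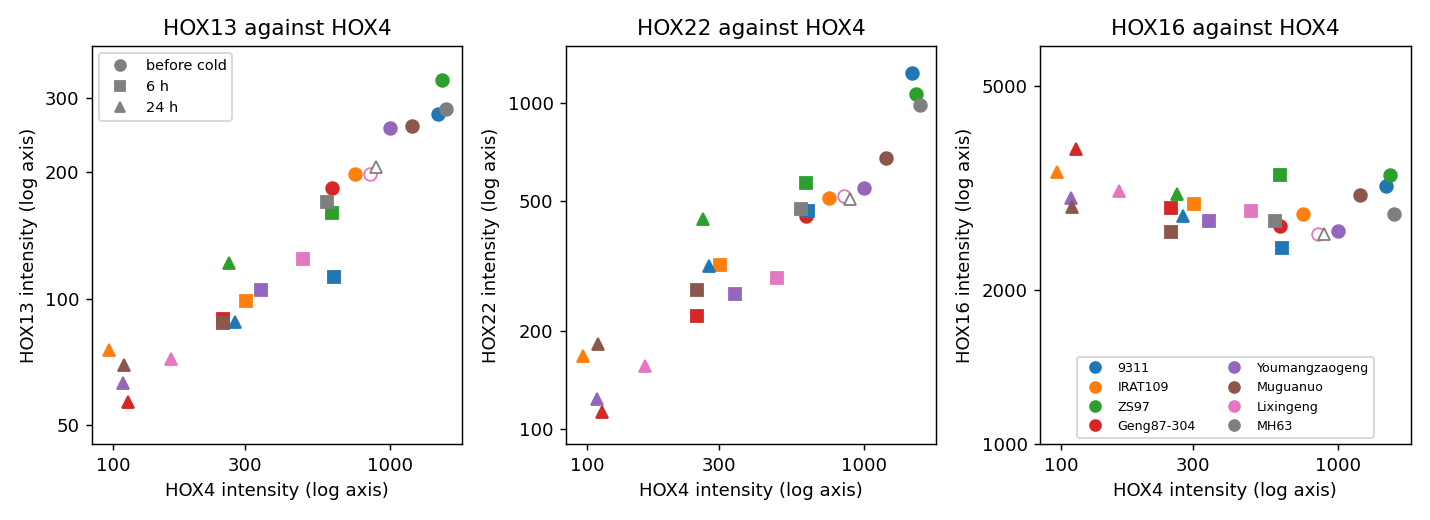
Intensity of HOX13, HOX22 and HOX16 against that of HOX4 on the same 24 arrays (both axes logarithmic), with colour for the accession, shape for the time and open symbols for the near-identical pair. HOX13 and HOX22 rise with HOX4 (r = 0.96 and 0.95 on the log2 scale), while HOX16 stays between 2420 and 3780.

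Because HOX4 is known to damp gibberellin responses when overproduced, 13 genes of gibberellin synthesis, breakdown and signalling were read in the same fit. The listed GA2OX genes of breakdown and GA3OX genes of late synthesis were not found by symbol. EUI1 alone therefore stood for breakdown, and most of that part of the pathway was not surveyed. At 6 h 2 of the 13 fell and 0 rose (2 at an unadjusted p under 0.05 by limma), where 6.96% of all probe sets fell and 2.79% rose. At 24 h 5 rose and 1 fell, where 13.3% and 19.8% of all probe sets did. The median change of the list was -0.07 at 6 h and 0.04 at 24 h, and that of all probe sets was -0.01 at both. Without the near-identical pair the counts were 1 higher and 2 lower at 6 h (4.5% and 9.91% of all probe sets). At 24 h they were then 5 higher and 2 lower (15.9% and 20.9% of all probe sets). Without Youmangzaogeng or Muguanuo 0 passed at 6 h, and without ZS97 or Geng87-304 only 1 did. Fewer of all probe sets passed at 6 h in each of these runs too.

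Of the synthesis genes, KAO, whose enzyme makes the first gibberellin of the pathway, fell by 0.80 ± 0.36 at 24 h in 8 of 8 accessions (adjusted p = 1.49e-05), from a median of 278 to 152. GA20OX3, a late synthesis enzyme, rose by 0.47 ± 0.12 in 8 of 8 (adjusted p = 1.64e-05). At 6 h GA20OX3 had a change of 0.20 (adjusted p = 0.0757), which passed without 9311 (0.24) or IRAT109 (0.24). The early synthesis genes KS1 and KO2, each read by a shared probe set, rose by 0.40 ± 0.29 and 0.30 ± 0.30 at 24 h (adjusted p = 0.00358 and 0.00837). The change of KO2 was 0.15 without the near-identical pair (adjusted p = 0.0114) and that of KS1 0.58. GA20OX2, the semidwarf gene, had a change of -0.35 ± 0.57 at 24 h (adjusted p = 0.0721; 3.97e-05 without the near-identical pair, change -0.58).

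Of the signalling genes, SLR1, the DELLA repressor of the pathway, ran from 837 to 1749 before cold, from 1027 to 1629.8 at 6 h and from 1373 to 1942 at 24 h. It rose by 0.44 ± 0.45 at 24 h in 6 of 8 accessions (adjusted p = 0.00514; 1.42e-05 without the near-identical pair, change 0.61). GAMYB, an activator downstream of SLR1 read by a shared probe set, rose by 0.63 ± 0.27 in 8 of 8 (adjusted p = 1.85e-06). The receptor gene GID1 had a change of 0.04 (adjusted p = 0.723), and EUI1, whose enzyme inactivates gibberellins, by -0.09 (adjusted p = 0.231). The pair that fell at 6 h, named after their values were seen, were SPY, a negative regulator (-0.23 ± 0.16, adjusted p = 0.0161), and YAB1 (-0.13 ± 0.12, adjusted p = 0.0263), whose unshared probe set was not above background on any array. A brighter, shared probe set of YAB1, at 87.9 to 287, gave -0.02 at 6 h (adjusted p = 0.963, limma). Both calls were lost without some accessions, SPY without ZS97, Youmangzaogeng or Muguanuo (-0.21, -0.21 and -0.23) and YAB1 without 9311, IRAT109, Geng87-304, Youmangzaogeng or Muguanuo (-0.13, -0.13, -0.11, -0.12 and -0.12).

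The tissue was checked by its markers, and bulk arrays cannot tell fewer cells of a type from less RNA per cell. All 5 leaf markers measured (RBCS, RCA, CAB2R, PORA and PORB) were above background on 24 of 24 arrays. PORA and PORB, enzymes of chlorophyll synthesis, fell at 24 h (by 1.23 and 0.74). The summed leaf marker intensity had a median of 27855 before cold, 27792 at 6 h and 26469 at 24 h. Of 4 root markers, LSI2 was not above background on any array, while LSI1, NAAT1 and PHT1-4 were above it on 24 of 24. The summed root markers ranged from 827 to 2339 before cold, from 856 to 2293 at 6 h and from 476 to 1254 at 24 h, with medians of 1266, 972 and 709. At 6 h none of LSI1, LSI2, NAAT1 and PHT1-4 passed (adjusted p = 0.0900, 0.72, 0.132 and 0.502, limma). LSI1, NAAT1 and PHT1-4 fell at 24 h (by 0.75, 0.99 and 0.58), and their part in the fall of HOX4 was not tested, nor was that of the 75th percentile and the actin ratio given above.

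On chromosome 9, the 10 measured genes nearest to HOX4, 5 on each side, moved in both directions by 24 h. At 6 h 3 fell, where 6.96% of all probe sets did, and at 24 h 3 fell and 3 rose, where 19.8% and 13.3% did. The median changes were -0.16 and -0.03. LOC4347327, 5 genes away and named after its values were seen, fell by 1.11 at 6 h (adjusted p = 0.0013) and by 2.2 at 24 h (adjusted p = 1.77e-07). The direct neighbours LOC4347332 and LOC4347334 had changes of -0.16 and -0.22 at 6 h and of -0.64 and -0.04 at 24 h.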

How the data were processed

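Per the labels' protocols, RNA was extracted with TRIzol and labelled with biotin for Affymetrix arrays. The deposited table held the probe set intensity of each array on a linear scale. How the authors summarised and scaled these values is not given in the sources used here. Of 57381 probe sets, 123 controls were left out and 57258 tested. The annotation gave 22436 of them 1 gene, 95 several and 34727 none, and symbols and synonyms came from RefSeq ASM3414082v1. The brightest probe set on average stood for each gene, shared ones (_x_at, _s_at) being set aside where another existed.

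All 24 arrays entered 1 model of time point and accession on log2(intensity + 32), in limma 3.58.1 (R 4.3.3; eBayes with a trend), with Benjamini-Hochberg adjustment over all probe sets and a threshold of 0.05. The fit was tested on simulated data. Accession was a block because each gave all 3 times. Deviations from the time means correlated at 0.248 to 0.886 over the 24 pairs of arrays within an accession, each above 0.1 (0.652 or more without the near-identical pair). Tables and plots used Python 3.11.15 with pandas 2.3.3. The SD beside a change is that of the accessions' changes.

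Of the lists, 11 of 13 class I, 8 of 12 class II, 5 of 5 class III and 8 of 9 class IV genes, 13 of 29 gibberellin genes, 5 of 11 leaf markers and 4 of 9 root markers were measured. The gene and the lists were chosen with earlier results of these data known. Named are HOX4, all measured class I genes, up to 6 called genes of each other list, and the 5 named genes most and least like HOX4. Symbols or synonyms counted as names. The neighbours on chromosome 9, the gibberellin genes named for 6 h and those with no call were picked after the results were seen. HOX4 had a single probe set, so no other could be compared. The alternatives tried were other offsets, normalizations, filters, array weights, no variance trend, no block, and leaving out the near-identical pair or each accession.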

Additional observations from a re-analysis of the deposited data

Results flagged for a closer look

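In groups of 8 accessions, a value was marked where its gap to the nearest other took up most of the group's range (Dixon's criterion), which happened in 8 of 68 groups, where chance gives about 1 in 20. For HOX4 the MH63 array at 24 h stood apart, at a log2 level of 9.85 against 7.01 to 8.26 in the other accessions. With it went the change of MH63 from before cold to 24 h, -0.81 against -3.13 to -2.17, and from 6 h to 24 h, 0.56 against -1.41 to -0.96. HOX13 showed the same accession apart at 24 h, with -0.41 against -1.60 to -1.10. This array is of the near-identical pair. The other array of the pair, Lixingeng before cold, enters the changes of Lixingeng at 6 h in HOX21 (-1.15 against -0.16 to 0.12), KS1 (-0.67 against 0.03 to 0.33) and KO2 (0.50 against -0.08 to 0.18). The change of HOX12 at 24 h in IRAT109 was 0.74 against 0.03 to 0.34, for a gene not above background on any array.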

How the results depend on the processing

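HOX4 kept its direction in every alternative run. Its log2 change was -1.41 to -1.22 at 6 h, -2.58 to -2.13 at 24 h and -1.20 to -0.86 from 6 h to 24 h, over offsets of 1 and 64, quantile normalization, equal medians and the arrays left out. The filter on dim probe sets and the run with no replicate block could not alter these changes. The filter removes other probe sets only, and each accession gave all 3 times. The accession term of HOX4 passed in every alternative that can test it (adjusted p 4.75e-06 to 0.00375). Without the replicate block 2 HD-Zip genes were called at 6 h (9 with it), 12 at 24 h (19) and 4 from 6 h to 24 h (12), and 1, 3 and 2 gibberellin genes (2, 6 and 6). Of the calls of named genes other than HOX4, 18 were lost without the block, among them HOX22 at 6 h (adjusted p = 0.0621, limma). Over all other alternatives there were 28 losses and 20 gains, counted anew in each alternative. A call that moved in several alternatives, such as those of HOX5, HOX10 and ROC5, was thus counted several times. Over all probe sets 1530, 9985 and 3252 were called without the block, against 5582, 18914 and 10350, and 8854 and 16000 with array weights at 6 h and from 6 h to 24 h. Leaving out each accession gave 7 to 10, 17 to 20 and 9 to 14 HD-Zip genes, and 0 to 2, 6 to 7 and 4 to 8 gibberellin genes. The number of all probe sets called moved as well in these runs. It was above the reported number without Lixingeng at 6 h, and without MH63 at 24 h and from 6 h to 24 h. In every other such run it was lower. The ranges are therefore not a measure of the lists alone. With few accessions and 1 array per accession and time, no test of a different response between accessions was possible, and signal near background limits HOX4 at 24 h. HOX4 has no other probe set, so that alternative could not be run. The cause of these shifts was not tested.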
